A study of Mus musculus with 4 samples.

Results

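COPI coat and ARF genes encode the machinery that buds vesicles from the Golgi and carries escaped endoplasmic reticulum (ER) proteins and receptors back to the ER. The 10 genes examined are the 7 coat genes Copa, Copb1, Copb2, Cope, Copg1, Copz1 and Arcn1, the GTPase genes Arf1 and Arf4, and Arfgap3. They were listed by name with earlier results of these data known, and the data are the rows of a deposited peak table that carry those names, 9 of 4890 peaks, plus a peak named for Ncstn that covers the start of Copa. The table lists sites bound by XBP1s, which is made from spliced Xbp1 mRNA during the unfolded protein response and activates transcription. Binding was assayed by ChIP-seq, in which DNA crosslinked to the factor is pulled down with an antibody and sequenced.

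The series holds 2 XBP1s immunoprecipitations and 2 inputs, the inputs being sheared chromatin taken before the antibody was added. All 4 libraries come from natural killer (NK) cells, cytotoxic lymphocytes, purified from the spleens of mice that the series' design text writes as Il15TgXbp1f/f and the labels as strain C57BL/6. All cells received IL-15, a cytokine that sustains NK cells, at 50 ng/ml for 1 h. No group without IL-15 and no group that lacks XBP1 was analysed here, and the labels name no Cre, age or sex, so the peaks describe a single condition. The deposited values are 1 combined list with no column for any library. The peaks therefore carry no replicate error, library depth is unknown, and no difference between samples could be tested. Counts and medians for the 10 genes are set beside the same quantity over all genes or promoters, as a description. Of the fixed marker lists, 3 of 7 NK genes (Prf1, Gzmb and Il2rb), 1 of 4 T cell genes (Cd3d), 0 of 3 B cell genes and 0 of 3 myeloid genes had a peak within 5000 bp of the start. A peak does not measure expression, so the labelled cell type was not checked by these counts.

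In a COPI coat, the coatomer complex is recruited to the membrane by an ARF protein in its GTP-bound state. The inner layer, made of the beta, gamma, delta and zeta subunits, binds cargo and ARF, and the outer layer, made of the alpha, beta-prime and epsilon subunits, forms the cage. ARF GTPase-activating proteins trigger GTP hydrolysis, which lets the coat come off. XBP1s is known for switching on genes of the secretory pathway, and it binds DNA with the core ACGT, in particular the unfolded protein response element (UPRE), TGACGTGG or, read on the opposite strand, CCACGTCA.

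The sites with such a core are shown first, so that the letters around it can be compared directly. ACGT alone was in 7 of 9 promoters searched, and in 57.3% of promoters with their start inside any peak, so a longer form is shown. RefSeq promoter windows (build GRCm38.p6, the assembly of mm10) run from 250 bases before to 50 after a start site, and 9 of the 10 genes matched an entry; Arcn1 did not. Within these windows, 6 of the 9 genes held CCACGTC on either strand, against 2.42% of all windows and 7.59% of those with their start inside a peak. Counted by gene, 2.73% of all genes with a window held it. This 7-letter form was picked after matches to its hexamers had been seen, so the contrast is a description. A seventh copy lay under the peak at Copa, in the window of Ncstn. Each site is written 5′ to 3′ on the strand that reads CCACGTC, which is in capitals, with 10 bases on each side.
Copb2, chr9:98563714-98563740, plus strand: cccggaagttCCACGTCagtgggttgg
Copb1, chr7:114254692-114254718, minus strand: ccgcccccttCCACGTCagccaaggac
Copg1, chr6:87887932-87887958, minus strand: ctcccgcccgCCACGTCgccctgagca
Copz1, chr15:103272888-103272914, plus strand: ttgtgcgactCCACGTCggcagcagct
Arf1, chr11:59228229-59228255, plus strand: ctgacggcagCCACGTCagcgcctgcc
Arf4, chr14:26638021-26638047, plus strand: tcgctgggctCCACGTCcggtagttcg
Copa, under the peak named for Ncstn, chr1:172082825-172082851, minus strand: cccaaggcttCCACGTCagctactccc

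The base after the core was A at Copb2, Copb1, Arf1 and the Copa peak, which completes CCACGTCA there. It was G at Copg1 and Copz1 and C at Arf4. The sites at Copb2, Copb1 and the Copa peak had 11 letters in common, TTCCACGTCAG, and those at Copb1 and the Copa peak 13, CTTCCACGTCAGC. The site at Arf1 shared 9 with those 3, CCACGTCAG, which was in 0.917% of windows with their start inside a peak and 0.234% of all windows. Of all 32851 windows 6 held TTCCACGTCAG, 5 of them with their start inside a peak. They are those of Copb1, Copb2 and Ncstn, the window of 4930579K19Rik that contains the Copb2 site, and 2 of other genes. These longer runs were read off the sites themselves, so their rarity elsewhere is no independent measure.

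The setting of the site is shown by longer stretches for 4 genes, from 120 bases before to 29 after the start, on the gene's own strand, again with CCACGTC in capitals. Copb2 and Copb1 were chosen as the coat genes with the full UPRE, Copz1 because CCAAT boxes lie nearby, and Arf4 because its site is the farthest from the start among the matches in a gene's own window.
Copb2, chr9:98563611-98563760, plus strand: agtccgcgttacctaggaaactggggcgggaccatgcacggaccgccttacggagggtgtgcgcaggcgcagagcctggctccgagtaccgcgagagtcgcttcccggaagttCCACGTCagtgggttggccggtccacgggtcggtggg
Copb1, chr7:114254651-114254800, minus strand: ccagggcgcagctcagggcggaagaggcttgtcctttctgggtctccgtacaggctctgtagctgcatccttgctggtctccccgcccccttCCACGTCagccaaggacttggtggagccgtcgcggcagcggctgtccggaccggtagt
Copz1, chr15:103272768-103272917, plus strand: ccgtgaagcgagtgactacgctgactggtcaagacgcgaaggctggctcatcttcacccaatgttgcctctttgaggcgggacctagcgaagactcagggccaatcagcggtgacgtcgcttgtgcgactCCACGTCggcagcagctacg
Arf4, chr14:26638014-26638163, plus strand: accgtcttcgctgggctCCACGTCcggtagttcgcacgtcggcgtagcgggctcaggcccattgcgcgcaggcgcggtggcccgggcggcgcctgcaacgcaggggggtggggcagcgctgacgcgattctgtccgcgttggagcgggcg

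The first question for these genes is whether XBP1s peaks lie at them. A peak named for the gene lay within 5000 bp of the start for 9 of the 10 genes, where 15.9% of 21896 protein-coding genes had one. The members were picked knowing this list and the rule takes rows that carry their names, while paralogues without a peak fall in the list of other pathway genes, so nothing is read from this contrast. The exception was Copa, whose start lies under the Ncstn peak. Counting any peak within 1000 bp of either gene end, all 10 genes had one, where 17.5% of protein-coding genes did, a contrast with the same limit. Each of the 9 named genes had 1 peak of its name in the whole list. In the 9 genes with a RefSeq promoter entry, which include Copa, the start site of that entry lay inside the peak. In the 9 genes with a peak of their own name, the authors' distances from peak centre to start were at most 364 bp.

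**Figure D1:**
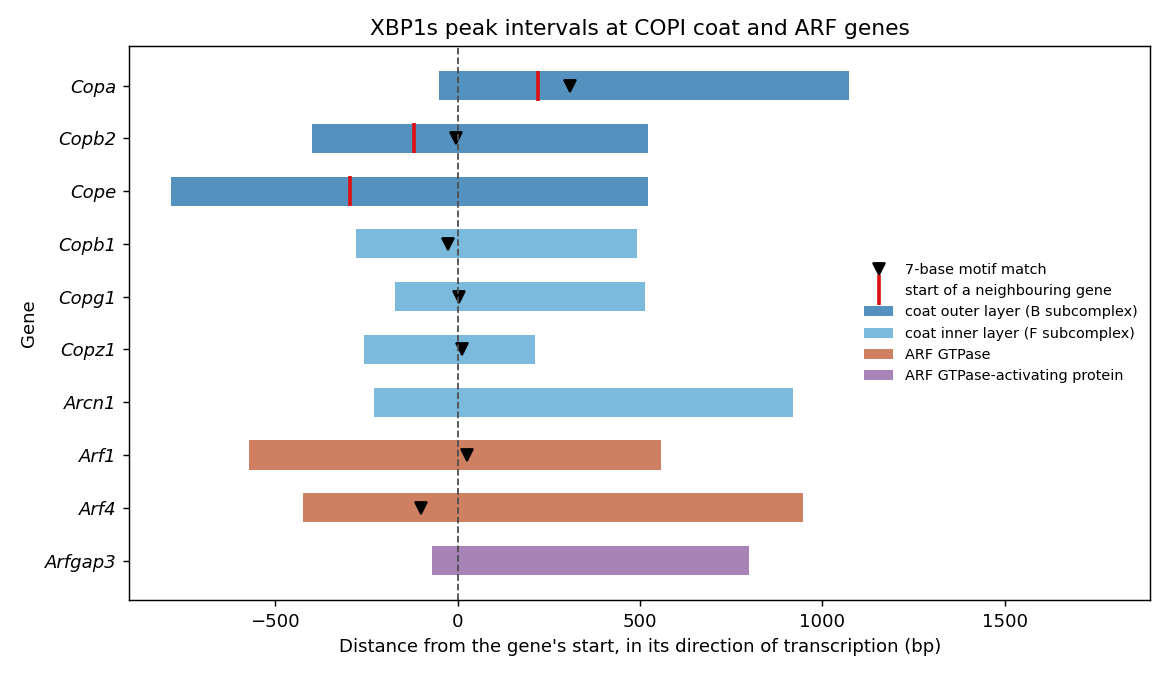
Each bar is the deposited peak interval at a gene, drawn in bp from the gene's start (dashed line) with transcription to the right; triangles mark CCACGTC or its reverse complement, and red ticks mark the start of a neighbouring gene on the opposite strand. For Arcn1 the authors' distance to the start was used, and no promoter sequence was searched there. The bars cover the start used here in all 10 rows, and the triangles at 5 of the 6 genes with a match in their own window sit within 30 bases of it.

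The outer coat genes had wide peaks. Width, end minus start plus 1, is the only quantity the table gives per peak besides its position, because the deposited score is 0 throughout. It is not a measure of signal strength, and the intervals may be whole calls or the overlap of several. Cope, the epsilon subunit, had a peak of 1309 bp (chr8:70301981-70303289), centred 132 bp upstream of the start and annotated as promoter. Copb2, the beta-prime subunit, had a peak of 924 bp (chr9:98563331-98564254), centred 61 bp downstream, also promoter. The peak over the start of Copa, the alpha subunit, was 1125 bp wide (chr1:172082479-172083603). All 3 were wider than the median of 410 bp for the widest peak of the 3486 protein-coding genes with a peak (interquartile range 281 to 625 bp).

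Each of these 3 outer coat peaks also covered the start of another gene on the opposite strand. At Copa this was Ncstn, which encodes nicastrin, a subunit of gamma-secretase, and whose start lies 220 bp inside Copa. The peak centre was 292 bp upstream of the Ncstn start and 512 bp downstream of the Copa start, so the nearest start was that of Ncstn and the table names that gene. The copy of CCACGTC there lay 92 bases before the Ncstn start and 306 bases after the Copa start. The peak at Cope covered a start of the RNA helicase gene Ddx49, 296 bp away, and that at Copb2 the start of the noncoding gene 4930579K19Rik, 120 bp away. With such shared intervals the table cannot tell which gene of a pair a peak belongs to.

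The inner coat genes ranged more widely. Arcn1, the delta subunit, had a peak of 1148 bp (chr9:44766890-44768037), centred 345 bp downstream of the start. Copb1, the beta subunit, had 771 bp (chr7:114254189-114254959), centred 106 bp downstream, and Copg1, the gamma subunit, 688 bp (chr6:87887767-87888454), centred 138 bp downstream by the authors' distance and 170 bp by the RefSeq start. Copz1, the zeta subunit, had the narrowest peak of the 10, 472 bp (chr15:103272630-103273101), centred 23 bp upstream in the promoter. The centres at Arcn1, Copb1 and Copg1 were annotated to intron 1, and at Arcn1 and Copb1 the detailed annotation reads CpG. No other start in the promoter table lay within 1000 bp of the peaks at Copb1, Copg1, Copz1 and Arcn1.

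Among the GTPases and their regulator, Arf4 had the widest peak of the 10 genes. Arf4 encodes a class II ARF that acts between the ER and the Golgi, and its peak of 1371 bp (chr14:26637711-26639081) was centred 262 bp downstream of the start, in the 5′ untranslated region of exon 1. Of genes with a peak, 3.24% had one at least as wide. Arf1 encodes the class I ARF best known for recruiting coatomer, and its peak of 1132 bp (chr11:59227709-59228840) was centred 7 bp upstream of the start, nearly symmetric around it, with 573 bp before and 558 bp after. Arfgap3, a coat-associated ARF GTPase-activating protein, had a peak of 870 bp (chr15:83349449-83350318) in intron 1. From the start site of its RefSeq window, chr15:83350247, 71 bp of that peak lay before and 798 bp after. The gene record reaches farther upstream, to 83350375, so by that end the peak lay wholly inside the gene.

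Over the 9 genes with a peak of their own name the median width was 924 bp, against 410 bp over all protein-coding genes with a peak, of which 89.5% were narrower than 924 bp. With the Ncstn peak counted for Copa, the median of the 10 was 1024.5 bp, and 7 of the 10 peaks were at least 800 bp wide, where 14.1% of genes with a peak had one of that width. The order of widths from Arf4 through Cope, Arcn1, Arf1 and Copa to Copb2 and Arfgap3 and then Copb1, Copg1 and Copz1 has no error attached. Arcn1, Arf1 and Copa, at 1148, 1132 and 1125 bp, cannot be ranked on so small a spread. Of genes with a peak, 41.5% had one at least as wide as that at Copz1, so this coat gene was not set apart by width. The members were picked with earlier results of these data known, so the contrasts in width with all genes are a description only.

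Other genes of the same pathway came from a list of 22, of which 16 had a peak named for them within 5000 bp of the start. Over all protein-coding genes 15.9% had one, which is also the background for the ARF regulators, tethers and SNAREs below. Of the peaks at these 16 genes, 0 reached 800 bp. That mark falls between the widest of them and the 870 bp at Arfgap3, so this count depends on where it was put. The widths at the 16 genes ran from 169 to 775 bp with a median of 538 bp. Thus 7 of the 10 COPI and ARF peaks were wider than the widest of them. The ranges overlapped, since 10 of the 16 exceeded the 472 bp at Copz1. Both lists were drawn up with earlier results of these data known. Nothing is therefore read from this contrast in width, or from the counts of pathway genes with a peak here and below.

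Paralogues of the coat and ARF genes divided. Copg2 and Copz2, the alternative gamma and zeta subunits, had no peak within 1000 bp of either end, while Copg1 and Copz1 did. Among ARFs, the class I genes Arf2 and Arf3 had none, whereas Arf1 had 1132 bp. The class II gene Arf5 had a peak of 720 bp centred 225 bp downstream of its start, and the class III gene Arf6 had 584 bp centred 143 bp upstream, plus a second peak of 449 bp named for it at 51041 bp. The members were picked knowing the peak list, and paralogues without a peak were placed among the other pathway genes. Nothing is therefore read from this division. Whether expression differs between the paralogues in NK cells was not measured here.

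ARF regulators had peaks named for them in 6 of 8 cases, with a median of 492.5 bp. Gbf1, the exchange factor that activates ARF at the cis-Golgi, had 459 bp, and Arfgef1, an exchange factor of the trans-Golgi, 494 bp, while its paralogue Arfgef2 had none. Arfgap1 and Arfgap2, the other coat-associated GTPase-activating proteins, had 491 and 323 bp, both narrower than the 870 bp at Arfgap3. The ARF-related GTPase gene Arfrp1 had 773 bp. Golph3, whose product helps COPI vesicles retain Golgi enzymes, had 412 bp at the start and 582 bp centred 1132 bp downstream. Arl1 had no peak of its own name, but a 530 bp peak named for Gm4925 ended 2 bp before the start in its RefSeq window. The gene record of Arl1 begins farther upstream, at chr10:88730920, inside that peak.

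All 8 genes listed here with the ER tether and SNAREs that receive COPI vesicles had a peak. Among tether genes, Nbas had 676 bp, Rint1 609 bp and Zw10 169 bp. Among SNARE genes, Use1 had 775 bp, Stx18 421 bp, Bnip1 375 bp and Sec22b 220 bp. Scfd2, of the Sec1 family and listed with them, had 582 bp. The median of the 8 was 501.5 bp.

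**Figure D2:**
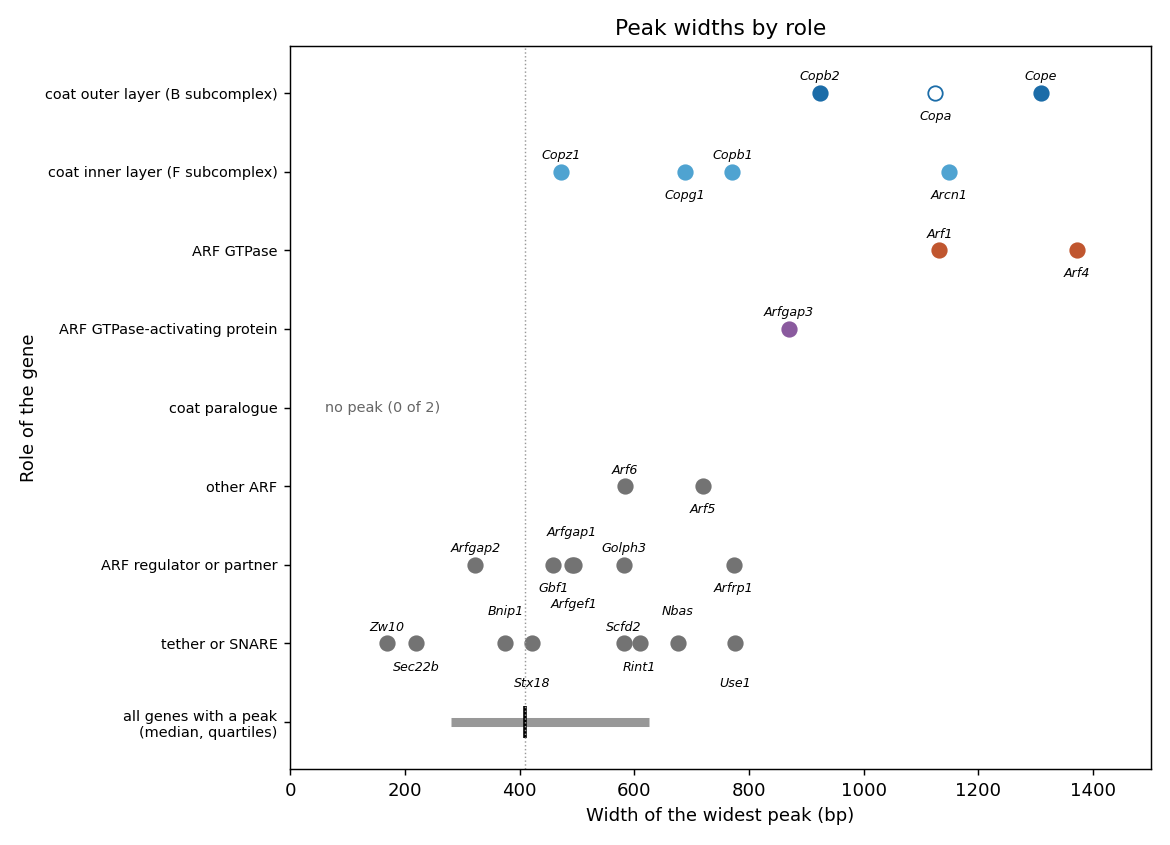
Each point is the widest peak within 5000 bp of a gene's start, in bp, by the role of the gene; the open point is the peak over Copa that the table names for Ncstn, and the grey bar at the bottom gives the quartiles and the black tick the median of all protein-coding genes with a peak. The COPI and ARF genes run from 472 to 1371 bp, the other pathway genes from 169 to 775 bp, and Copg2 and Copz2 have no point.

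The second question is what the sequences under these peaks share. The hexamer CCACGT was present in the promoter windows of 6 of the 9 searched genes, Copb1, Copb2, Copg1, Copz1, Arf1 and Arf4, where 8.31% of all 32851 windows and 19.8% of the 2726 windows whose start lies inside a peak held it. The same 6 genes held GACGTG, present in 6.38% of all windows and 17.2% of those with their start inside a peak. The 2 hexamers overlap in CCACGTC, and each of the 6 genes had both in this joined form. CCACGTC was found in 2.42% of all windows, in 7.59% of those with their start inside a peak, and in 8.74% of the 1510 whose start lies inside a peak at least as wide as that of Copz1. Counted by gene, the shares over all genes with a window were 9.4% for CCACGT, 7.15% for GACGTG and 2.73% for CCACGTC. The joined form was searched after the hexamer matches had been seen, on both strands as were all motifs. TGACGTG was present at Copb1, Copb2 and Arf1, 3 of the 9 genes, and in 2.01% of all windows and 6.42% of those with their start inside a peak.

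Shorter cores were common in all promoters under peaks. ACGT was in 7 of the 9 genes and CCACG in 6, against 57.3% and 59.2% of windows with their start inside a peak. CACGTG, an E-box with the same ACGT centre, was in 0 of the 9 genes, in 14.8% of windows with their start inside a peak and in 7.15% of all windows. CCAAT, the box bound by NF-Y, was found at Cope, Copz1, Arf4 and Arfgap3, 4 of 9 genes, and in 40.0% of windows with their start inside a peak. The match at Arfgap3 lay outside the deposited peak, which left 3 genes with CCAAT inside it. The ER stress response elements ERSE and ERSE-II, which join an NF-Y box to CCACG, were in 0 of the 9 genes. ERSE is CCAAT, then 9 bases of any kind, then CCACG, and ERSE-II is ATTGG, then 1 base, then CCACG. They are rare, with ERSE in 0.119% and ERSE-II in 0.0365% of all windows, and in 0.514% and 0.257% of those with their start inside a peak.

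**Figure D3:**
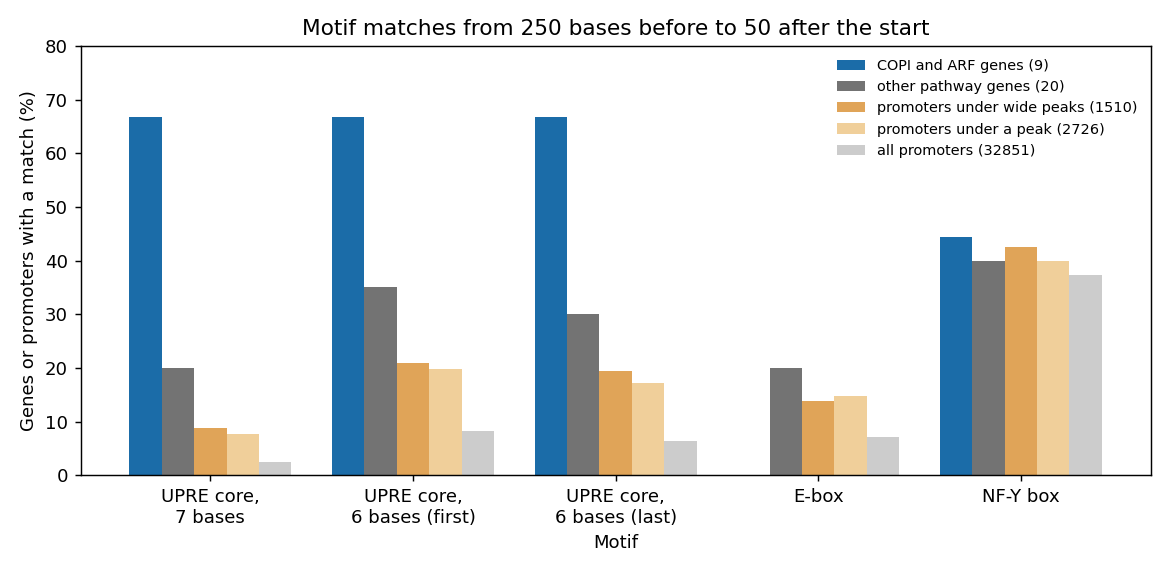
Bars give the percent of genes (first 2 groups) or promoter windows (other 3) with a match on either strand, for the joined form, its first hexamer, its last hexamer, the E-box and the NF-Y box from left to right; wide peaks are those at least as wide as the peak at Copz1. The bar for COPI and ARF genes stands at 66.7% for the first 3 motifs and at 0 for the E-box. At the NF-Y box the 5 bars lie close together.

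Each motif with ACGT holds a CpG, so base composition bears on these shares. The GC content of the members' windows had a median of 63.3% (range 52.3 to 72.3), against 62.3% for windows with their start inside a peak and 52.7% for all windows. The observed over expected CpG ratio had a median of 0.844 (range 0.497 to 1.02), against 0.867 for windows with their start inside a peak and 0.384 for all. In both measures the members' windows were near the windows with their start inside a peak, which makes that subset the closer background. Whether composition accounts for any of the motif counts was not tested.

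The sites lay close to the start. Counted with the start base as 0, the first base of CCACGTC or its complement was at -28 in Copb1, -7 in Copb2, 2 in Copg1, 10 in Copz1, 22 in Arf1 and -103 in Arf4. Thus 5 of the 6 genes had it within 30 bases of the start, where 31.4% of the 207 windows with their start inside a peak and CCACGTC did. The limit of 30 bases lies just beyond the site at Copb1, so this contrast depends on where the limit was put and nothing is read from it. Arf1 has a second start in the promoter table, downstream of the first. From that second start the same site is at -83, outside the 30 bases. Arf4 had a further copy of GACGTG, read on the opposite strand, at -86 beside that at -102. All 6 sites lay inside the deposited peaks. They were 32 bp from the peak centre at Arf1 and 36 bp at Copz1, 65 bp upstream of it at Copb2, 131 bp upstream at Copb1, 165 bp upstream at Copg1 and 362 bp upstream at Arf4.

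**Figure D4:**
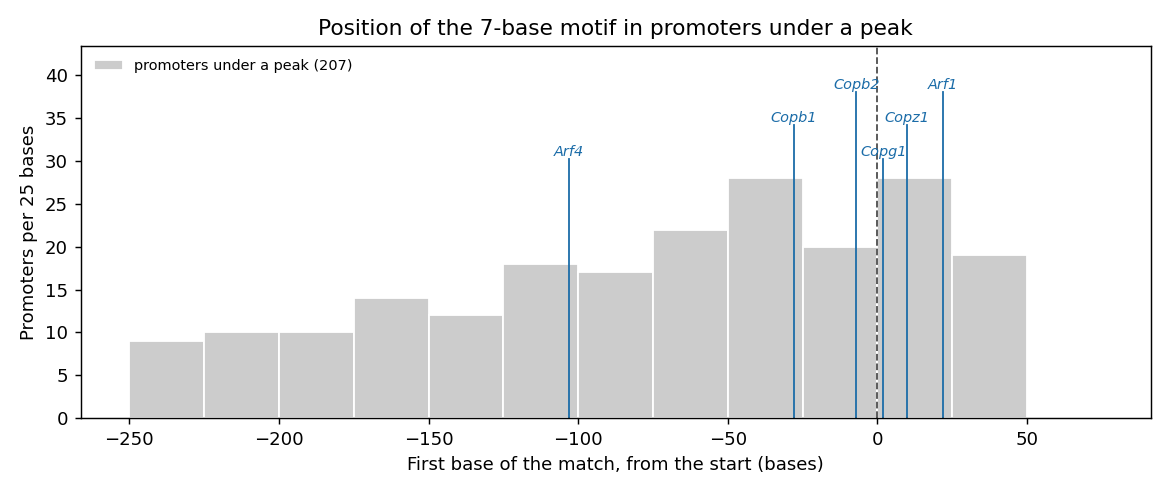
Grey bars count the 207 promoter windows with their start inside a peak and CCACGTC on either strand, in steps of 25 bases by the position of the match nearest the start; blue lines mark the COPI and ARF genes. The last bar is short of a full step because the windows end 50 bases after the start. Only Arf4 of the 6 marked genes lies farther than 30 bases from the start, with Arf1 counted from its first start.

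Copa, Cope and Arfgap3 held neither hexamer in their own windows, and their peaks were 1125, 1309 and 870 bp wide. This is no split of the peaks by motif, since the peaks at Copa and Cope hold matches in a neighbour's window and much of the intervals was not searched. Over all windows with their start inside a peak, the peak had a median width of 597 bp where CCACGTC was present and 500 bp where it was not. Cope held 4 copies of ACGT, at -227, -208, -41 and 2, in other contexts, and the window of Ddx49 under the same peak held GACGTG. For Copa, only 50 bp of the peak lie before the start and 1074 bp after it, so most of the interval is outside the searched window. Likewise most of the Arfgap3 peak lies beyond it.

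Of the other pathway genes, 20 had a promoter entry. CCACGT was found in 7 of them and GACGTG in 6, where 9.4% and 7.15% of all genes with a window held these. CCACGTC was found in 4, namely Gbf1, Bnip1, Arl1 and Copz2, where 2.73% of all genes with a window held it. The list was drawn up with earlier results of these data known, so these shares are a description. Among the 14 of these genes with their start inside a peak, 2 held CCACGTC, Gbf1 and Bnip1, where 7.59% of all windows with their start inside a peak did. The copy at Arl1, with its first base at -8, is not in this count because the start site of its window lies outside the peak. That copy still lay under the peak named for Gm4925, which runs from -531 to -2. The difference between the other pathway genes and the COPI and ARF genes was not tested, and the 7 letters came from matches in COPI and ARF genes. Copz2 held 2 copies and had no peak, while Copz1 held 1 copy and had a peak. Arf5 held CCACGT without the following C. A match is a run of letters only and does not show that XBP1s is bound there.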

How the data were processed

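XBP1s ChIP-seq and input libraries of mouse splenic NK cells were represented by a single peak table. Per the file headers, it is output of the HOMER peak annotator on intervals named common, with build mm10. Tools listed, with no role, in the submitters' processing notes are HOMER (4.11 and 4.11.1), MACS2 (2.2.7.1), Bowtie2 (2.4.5), FastQC (0.11.9) and Trim Galore (0.6.7). The sources used here do not say how calls were combined or at what threshold. The peak score column deposited by the authors is 0 in all 4890 rows and was not used. Distances to the start, annotations and gene names are the authors' own.

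Genes were matched by Entrez number to RefSeq GRCm38.p6, with 21896 protein-coding genes; the nearest gene of 4885 peaks matched. Promoter windows, 32851 of 300 bases, came from RefSeq and were searched on both strands for 10 motifs. A named gene is a member, a gene sharing a member's peak, or a gene of the pathway list; a further gene planned for that list is not reported here and is in none of its counts. The members, lists and motifs were chosen with earlier results of these data known. No test was run, since values per library are lacking. Motif search and gene assignment were tested on simulated data. Alternatives varied the window, peaks, assignment and motif. Python 3.11.15, pandas 2.3.3, NumPy 2.4.6 and matplotlib 3.10.9 were used.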

Additional observations from a re-analysis of the deposited data

How the results depend on the processing

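The count of 9 of the 10 COPI and ARF genes with a peak named for them was the same with a window of 1000 bp, at any distance, with peaks of at least 200 bp and with the widest 50% of peaks, and was 10 with any peak within 1000 bp of either gene end. In that last setting the median width was 1024.5 bp instead of 924 bp, because the Ncstn peak then counts for Copa. Over all protein-coding genes the share with a peak was 15.1%, 17.8%, 14.8%, 9.02% and 17.5% in these settings, in that order. The median width over all genes with a peak was 412, 404, 432, 592.5 and 425 bp, against 410 bp in the main setting. The other pathway genes with a peak numbered 15 with peaks of at least 200 bp, 13 with the widest 50% of peaks, and 16 in the other settings. At gene ends 15 of these 16 genes were shared, with Arl1 in place of Stx18. The 6 genes with CCACGT stayed the same 6 when only the part of the window inside the peak was used and when CCACGTC was required. The comparisons with CCACGTC and with windows under a peak were added after the data were seen. No paired analysis was possible because the list has no column for any library; for the same reason tests without each replicate were not run. Library depth is unknown, so a gene without a peak, such as Copg2, is a gene with no listed interval, not one shown to be unbound.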
